A study of Mus musculus with 8 samples.

Results

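The phase II conjugating enzymes described here are the UDP-glucuronosyltransferases (Ugt), the cytosolic sulfotransferases (Sult) and the soluble glutathione transferases (Gst) of mouse liver. They were taken from the deposited gene table by symbol: genes whose names begin with Ugt1 to Ugt3, Sult with a number, or Gst with a class letter (a, k, m, o, p, t or z) and a number, without pseudogenes, and with at least 1 FPKM in at least 2 of the 8 libraries. FPKM divides fragments by the length of the transcript and by the size of the library. A trend with transcript length remained in these data, and shared sequence leaves some levels uncertain. Comparisons of level between genes are therefore approximate. The rule gave 44 members of the 47719 genes in the table: 18 of 21 Ugt genes, 7 of 19 Sult genes and 19 of 21 Gst genes. The 17 family genes that did not pass were at no more than 1.14 FPKM in any library, and 12 of them were sulfotransferases, among them Sult2a1 to Sult2a7 and Sult3a1. The filter used only levels, not groups, but 3 members passed it through 1 group alone: Ugt1a10 and Sult1c2 through the controls and Sult1e1 through day 2. For these genes the filter favours a difference from that group. The day 2 counts of members called lower (Ugt1a10, Sult1c2) or higher (Sult1e1) include them.

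All libraries were RNA from liver of wild-type C57BL/6 mice. The control group held 2 libraries from normal mice aged 10 weeks that, by the labels, had no surgery. The day 2 group held 4 libraries and the day 14 group 2 libraries, taken at those times after an extended hepatectomy, the removal of most of the liver. By its title the study gave mice with liver failure encapsulated organoids of proliferating human hepatocytes. The design text names EMC-treated controls and eLO-treated mice at day 2 and eLO-treated mice alone at day 14, and no label places a day 2 library in either treatment. Surgery, treatment and time therefore cannot be told apart in these comparisons, and the labels give no sex and do not say that libraries came from separate mice. The title of day 2 replicate 1 reads d1, although its age label reads day 2. The title of day 2 replicate 3 carries the letters TVR, which no label explains. Replicate numbers after hepatectomy only name libraries.

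The files give no read counts, so absolute depth is unknown, and the lowest FPKM steps gave relative depths of 0.63 to 1.13 against control replicate 1. Total FPKM ran from 686332 in day 2 replicate 4 to 1298000 in day 14 replicate 1. The median difference of the genes tested from their control mean was −0.036 to 0.038 log2 units per library. Day 2 replicates 1 and 2 stood apart from replicates 3 and 4. Across genes on the log2 scale, r was 0.96 between replicates 1 and 2 and 0.97 between replicates 3 and 4, but no more than 0.93 across the pairs. The summed FPKM of 10 cell cycle genes was 3.86 and 2.71 in day 2 replicates 1 and 2, 553 and 783 in replicates 3 and 4, and 10.2 to 13.7 in the other libraries. The labelled tissue matched its markers: 12 hepatocyte genes such as Alb summed to 60128 and 65001 FPKM in the controls, 71391 to 105893 at day 2, and 64089 and 79854 at day 14. In bulk RNA, fewer cells of a type and less RNA per cell cannot be told apart. Short transcripts read higher than long ones after hepatectomy, by 0.89 to 0.96 log2 units at day 2 between the shortest and longest eighth of genes and by 0.52 and 0.89 at day 14.

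Phase II enzymes attach a polar group to drugs, hormones, bilirubin and bile acids so that they can leave the cell in bile or urine. Glucuronosyltransferases are membrane proteins of the endoplasmic reticulum that use UDP-glucuronic acid, sulfotransferases are cytosolic and use the sulfate donor PAPS, and glutathione transferases join reduced glutathione to electrophiles such as products of lipid peroxidation. Hepatocytes are the main site of all 3 reactions. Several of these genes are controlled by the nuclear receptors CAR and PXR, by the oxidant sensor NRF2, or by the sex-dependent pattern of growth hormone.

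The 3 families are first set side by side. Summed over its 18 members, the Ugt family reached 2465 and 2337 FPKM in the controls, 412, 513, 1136 and 622 in day 2 replicates 1 to 4, and 1639.8 and 1949 at day 14. Every day 2 sum was below both controls, and the day 2 mean was 27.9% of the control mean. The Sult sums moved less, with 825 and 900.1 FPKM in the controls, 704, 687, 579.6 and 561 at day 2, and 562 and 808 at day 14. The Gst sums did not separate the groups: 6771 and 7399.7 FPKM in the controls, 3478, 4465, 11396 and 4426 at day 2, and 9178 and 9432 at day 14. Day 2 replicate 3 held the highest Gst sum of all libraries and the other 3 day 2 libraries the lowest. These sums are not scaled to the unequal library totals. As a share of the total, Gst held 0.944% and 1.01% in the controls and 0.394% to 1.39% at day 2. At day 14 it held 0.707% and 0.898%, below both controls. Ugt shares were 0.344% and 0.320% in the controls, 0.0452% to 0.139% at day 2, and 0.126% and 0.185% at day 14. Sult shares were 0.115% and 0.123%, 0.0606% to 0.0924%, and 0.0433% and 0.0769%, in that order.

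**Figure D1:**
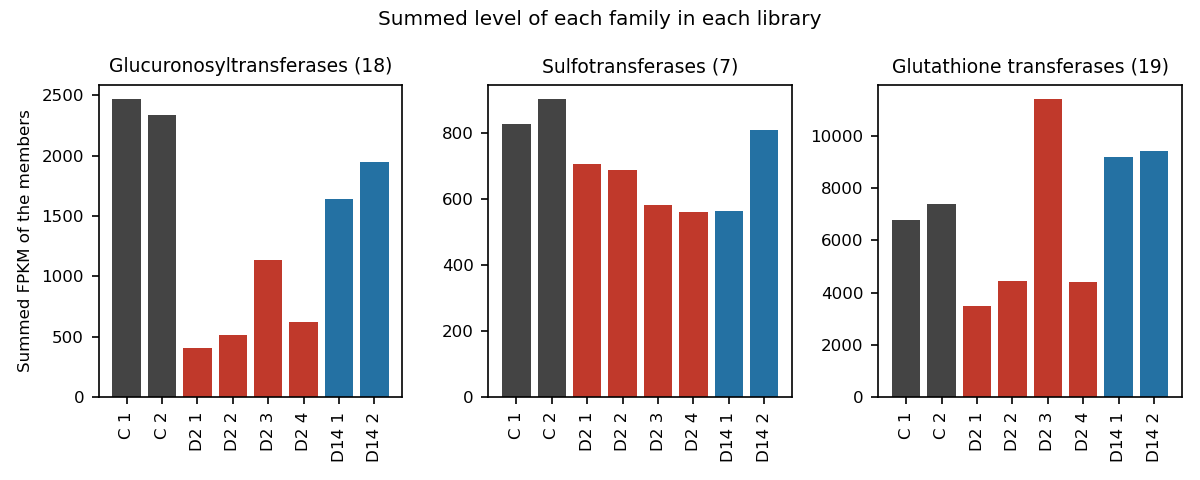
Summed FPKM of the members of each family (vertical axes, linear from 0) in each library (C, control; D2, day 2; D14, day 14; the number is the replicate). All 4 day 2 bars of the glucuronosyltransferases are under both control bars, the sulfotransferase bars span 561 to 900.1 FPKM, and the glutathione transferase bar of day 2 replicate 3 reaches 11396 FPKM.

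Each gene was tested with limma on log2(FPKM + 1) in 1 fit over the 3 groups, and a gene is said to have risen or fallen only where its Benjamini-Hochberg adjusted p over the 12340 genes tested was under 0.05. Changes on this scale understate those of genes near 0. At day 2 against control, 5 of 44 members rose, 12 fell and 27 did not pass. Over all genes tested 9.72% rose and 11.5% fell. Of these calls, 3 are of the genes that passed the filter through 1 group alone (Ugt1a10, Sult1c2 and Sult1e1). Among the Ugt members 9 of 18 fell and 0 rose, with 14 of 18 at an unadjusted p under 0.05, and all 18 log2 changes were negative, from −4.35 to −0.25 with a median of −1.72. Among the Sult members 2 of 7 rose and 3 fell, with a median of −0.42. Among the Gst members 3 of 19 rose and 0 fell, with 7 of 19 at an unadjusted p under 0.05 in either direction, 10 positive and 9 negative changes, and a median of 0.33. The median over all genes tested was 0.05, and 4633 of the 12340 had an unadjusted p under 0.05.

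Transcript length differs between the families, with a median of 2234 bases for Ugt, 2143 for Sult and 1182 for Gst members. With the trend on length and GC content removed from each library, the median change was −1.52 for Ugt, −0.16 for Sult and −0.02 for Gst, so that only the Gst median changed sign. The difference between the families was not tested, since members of a family are not replicates. With only day 2 replicates 1 and 2 in the day 2 group, 14 Ugt, 3 Sult and 5 Gst members fell, and 0 Ugt, 2 Sult and 3 Gst members rose. In that fit 15.9% of all genes tested fell and 16.1% rose. With only replicates 3 and 4, 9 Ugt, 3 Sult and 0 Gst members fell, and 0 Ugt, 2 Sult and 6 Gst members rose, against 13.9% of all genes that fell and 14.8% that rose.

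The day 2 libraries lay wholly below both controls for 14 Ugt, 4 Sult and 2 Gst members, 20 in all. Over all genes tested this held for 25.4%. They lay wholly above both controls for 0 Ugt, 2 Sult and 6 Gst members, 8 in all, against 26.1% of all genes tested. The remaining 4 Ugt, 1 Sult and 11 Gst members overlapped the controls.

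**Figure D2:**
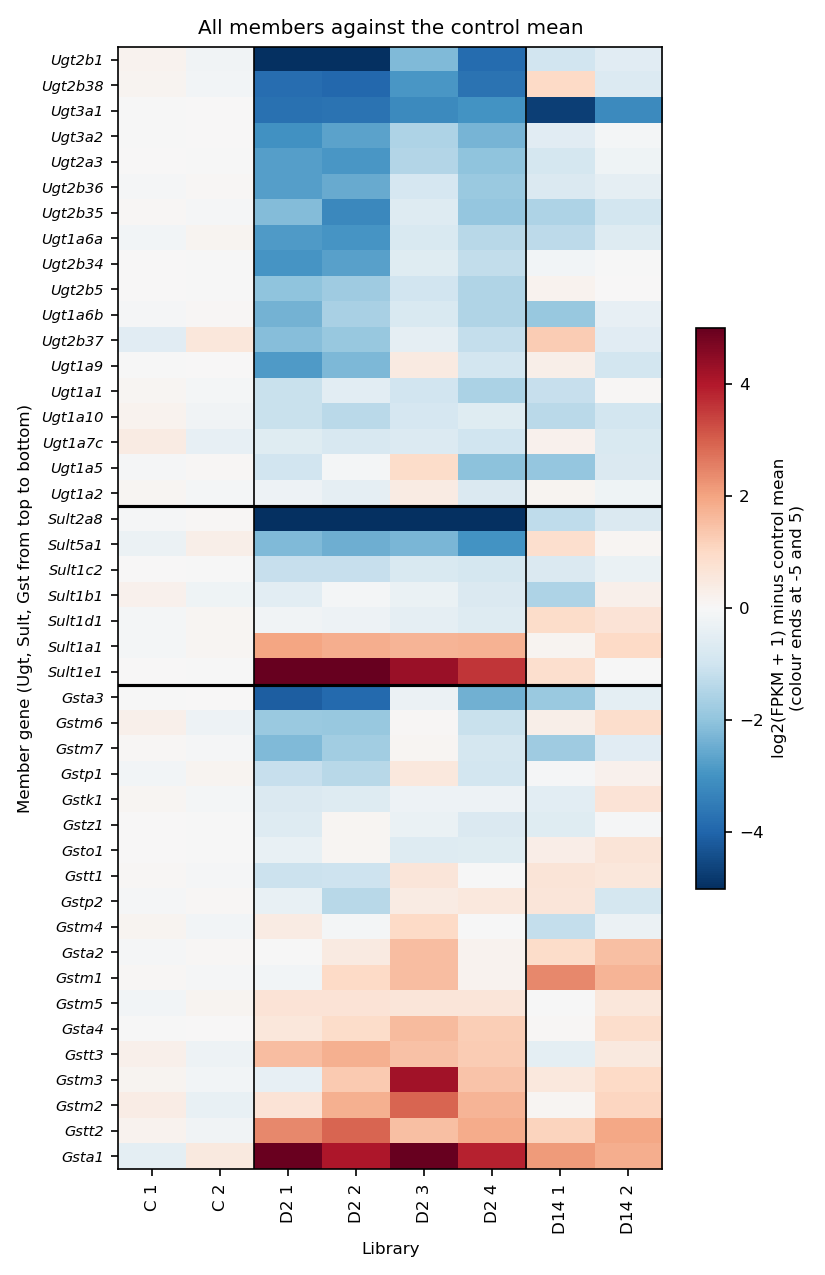
Log2(FPKM + 1) of each of the 44 members minus its mean over the 2 controls (colour, ending at −5 and 5), with libraries in columns and members in rows, sorted within each family by the day 2 mean. The Ugt block is mostly blue at day 2 and paler in replicate 3, Sult2a8 and Sult1e1 hold opposite ends of the Sult block, and the Gst block holds both colours.

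The Ugt1a genes encode the glucuronosyltransferases of bilirubin and phenols. They lie on mouse chromosome 1 (GRCm38, GENCODE M21) and their transcripts join different first exons to the same later exons. In the 1 transcript used here for Ugt1a7c, the first exon was shared with Ugt1a6b and the next with Ugt1a6a. The gene is annotated from chr1:88095062, upstream of that transcript, so another of its transcripts begins there and was not drawn. Of the later exons, chr1:88215044-88215175, chr1:88215795-88215882 and chr1:88216138-88216357, which are 132, 88 and 220 bases long, were in all 9 annotated Ugt1a genes. Between 38.9% and 80.7% of the 50-base words of the 8 Ugt1a members occurred in another of the 67 family genes. Words were compared only among these family genes, pseudogenes included, and not with the rest of the table. How fragments from these exons were divided is not given, so the levels of single Ugt1a genes are uncertain.

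**Figure D3:**
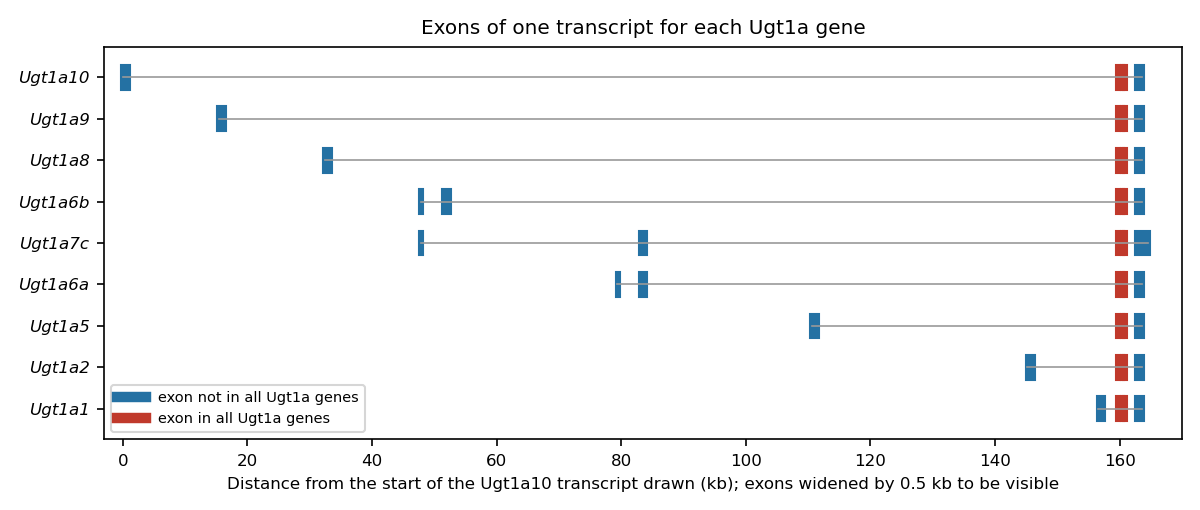
Exons of 1 annotated transcript of each of the 9 Ugt1a genes, drawn by distance in kb from the start of the Ugt1a10 transcript, with red for exons in all 9 genes and blue for the others. Most genes differ at the left, and the Ugt1a7c transcript drawn shares both its early exons with a Ugt1a6 gene. All share the 3 red exons at the right, which are drawn so close that they merge.

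Ugt1a1, the bilirubin glucuronosyltransferase, had the highest mean of the Ugt1a genes. It measured 266 and 229 FPKM in the controls, 114, 172, 125 and 81.4 at day 2, and 109 and 258 at day 14. All day 2 libraries were below both controls, and its change of −1.05 ± 0.40 (SE) did not pass (limma adjusted p = 0.098). Ugt1a10 was the one Ugt1a member that fell, by 0.97 on the log2 scale (limma adjusted p = 0.040), from 1.83 and 1.27 FPKM in the controls to between 0 and 0.681 at day 2. It passed the filter through the controls alone, so the filter favoured this fall, and the call was kept in 10 of 17 alternatives. The other Ugt1a members had changes of −1.97 to −0.25. Ugt1a6a and Ugt1a6b, enzymes for planar phenols, had −1.97 and −1.56 with adjusted p of 0.052 and 0.059.

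The Ugt2b genes, on chromosome 5, encode enzymes for steroids and many drugs. They summed to 1684 and 1573.5 FPKM in the controls, 225, 247, 750.2 and 407 at day 2, and 1249 and 1301 at day 14. Of their 7 members 5 fell at day 2, and the other pair, Ugt2b34 and Ugt2b37, had changes of −1.87 and −1.41 that did not pass.

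Ugt2b1 (chr5:86916638-86926530) stood at 497 and 385 FPKM in control liver, 7.43, 7.68, 93.6 and 29.8 at day 2, and 223 and 293 at day 14. The highest day 2 library was still below both controls, and replicates 1 and 2 were the lowest. The change was −4.35 ± 0.90 (limma adjusted p = 0.015), the largest fall among the Ugt members. No 50-base word of Ugt2b1 occurs in another of the 67 family genes, the only ones compared.

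Ugt2b38 had levels of 31.6 and 26.3 FPKM without surgery, 1.14, 0.953, 3.01 and 1.33 at day 2, and 59.1 and 17.4 at day 14, a day 2 change of −3.58 ± 0.47 (limma adjusted p = 0.0039). Ugt2b36 measured 434 and 461 FPKM in the controls, 65.9, 76.1, 249.2 and 122.96 at day 2, and 268 and 327 at day 14, a day 2 change of −1.99 ± 0.49 (limma adjusted p = 0.027). For both genes day 2 replicate 3 was the highest of its group and day 2 did not overlap the controls.

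Ugt2b5 stood at 447 and 435 FPKM in control liver, 109, 127, 229 and 154 at day 2, and 499 and 443 at day 14. Its change of −1.56 ± 0.32 (limma adjusted p = 0.014) was the smallest among the called Ugt2b members, and at day 14 it was the Ugt gene with the highest level in both libraries. Ugt2b5 shares 41.7% and Ugt2b38 37.4% of its 50-base words with other family genes, mostly with each other.

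Ugt2b35 had levels of 99.4 and 91.5 FPKM without surgery, 20.5, 9.37, 60.5 and 24.2 at day 2, and 32.1 and 49.3 at day 14. Its change of −1.99 ± 0.59 passed narrowly (limma adjusted p = 0.047). The call was kept in 8 of 18 alternatives, and the adjusted p was 0.076 with the length and GC trend removed.

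Ugt2a3, another steroid and drug glucuronosyltransferase, measured 129 and 128 FPKM in the controls, 17.9, 16.3, 45.4 and 31.0 at day 2, and 68.9 and 110.4 at day 14. The groups did not overlap, day 14 lay between the others, and the day 2 change was −2.29 ± 0.42 (limma adjusted p = 0.010).

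The 2 Ugt3a genes, neighbours on chromosome 15 whose enzymes use sugar donors other than UDP-glucuronic acid, both fell at day 2. Ugt3a1 stood at 47.8 and 50.2 FPKM in control liver, 2.73, 2.86, 4.44 and 5.29 at day 2, and 0.904 and 4.46 at day 14. Neither hepatectomy group reached the controls, with changes of −3.41 ± 0.41 at day 2 (limma adjusted p = 0.0031) and −3.95 ± 0.48 at day 14 (limma adjusted p = 0.014). Ugt3a2 had levels of 182 and 188 FPKM without surgery, 22.0, 28.0, 62.4 and 36.6 at day 2, and 124 and 173 at day 14. It fell at day 2 by 2.39 on the log2 scale (SE 0.39, limma adjusted p = 0.0074), and its day 14 libraries lay between day 2 and the controls, with a change of −0.34 from control that did not pass.

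**Figure D4:**
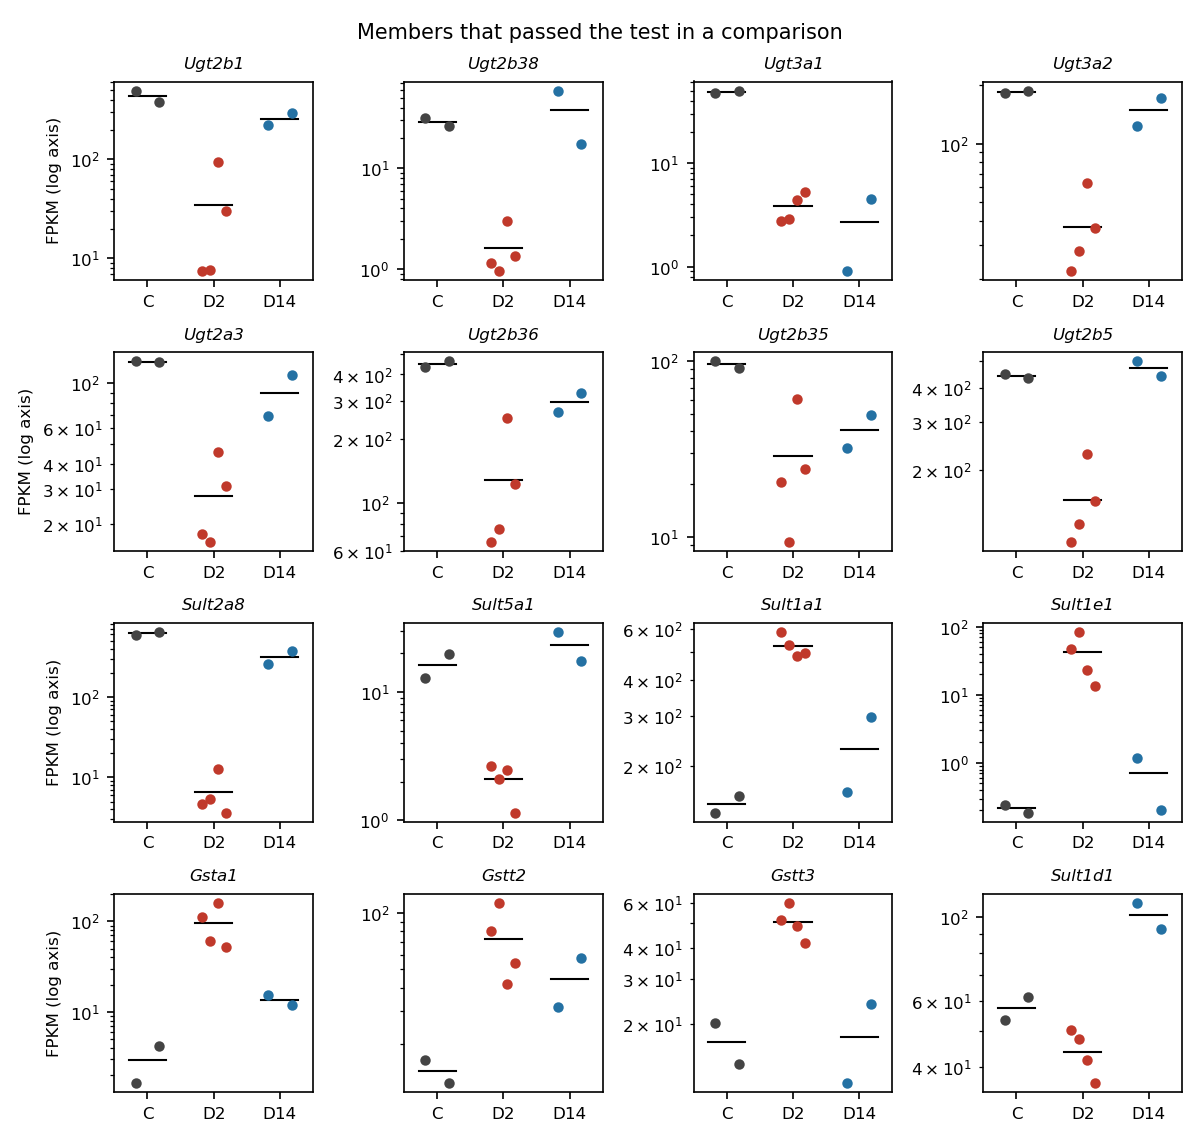
FPKM on log axes of 16 members that passed in at least 1 comparison, with points for libraries, horizontal lines for group means, and C, D2 and D14 for control, day 2 and day 14. Sult2a8 and Ugt2b1 dip at day 2, Ugt3a1 is low in both hepatectomy groups, and Sult1e1, Gsta1 and Sult1a1 peak at day 2.

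Day 2 replicate 3 had the highest day 2 level for 14 of 18 Ugt members and replicate 1 the lowest for 9. The median Ugt log2 difference from the control mean was −2.56, −2.40, −0.80 and −1.55 in day 2 replicates 1 to 4. The sum of 12 pericentral hepatocyte genes, which mark the cells next to the central vein, had the same order at the top: 5004 and 4677 FPKM in the controls and 336, 769.9, 2617 and 1453 at day 2. Of the 11 pericentral genes tested 0 rose and 2 fell, and of 12 periportal genes 0 rose and 5 fell, with periportal sums of 6104 and 6983 FPKM in the controls and 3928 to 5176 at day 2. Of 13 genes that are higher in male mouse liver 10 fell, with a median of −2.48, and 0 rose. Their part in the Ugt result was not tested.

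The sulfotransferases exchanged their leading member at day 2. Sult2a8, a liver enzyme that sulfates bile acids, made up 72.2% and 71.3% of the summed Sult level in the controls and 0.649% to 2.18% at day 2. Sult1a1, the phenol sulfotransferase, made up 16.8% and 17.6% in the controls and 77.1% to 88.1% at day 2. At day 14 Sult2a8 was again the highest, at 45.1% and 46.6%, with Sult1a1 at 28.9% and 36.7%.

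Sult2a8 (chr7:14410686-14446769) measured 595 and 642 FPKM in the controls, 4.71, 5.38, 12.6 and 3.64 at day 2, and 253 and 376 at day 14. The 3 groups did not overlap. The control mean was 93.9 times the day 2 mean, the change was −6.48 ± 0.42 (limma adjusted p = 6.8e-04), and the call was kept in all 18 alternatives. The day 14 mean of 315 ± 87.0 FPKM (SD, n = 2) was 50.9% of the control mean, and its change of −0.999 from control did not pass (limma adjusted p = 0.21).

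Sult1a1 (chr7:126672865-126676432) stood at 138 and 158 FPKM in control liver, 585, 529.6, 483 and 495 at day 2, and 163 and 296 at day 14. Every day 2 library was above all others, and they were close to each other. The change at day 2 was 1.81 ± 0.28 (limma adjusted p = 0.0064).

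Sult1e1, the estrogen sulfotransferase, was nearly absent from the controls. Its level was 0.244 and 0.186 FPKM there, 47.5, 83.8, 23.1 and 13.6 at day 2, and 1.20 and 0.202 at day 14. Day 2 replicates 1 and 2 were the highest, and none of the day 2 values reached down to the other groups. The change was 4.84 ± 0.63 (limma adjusted p = 0.0038), and Sult1e1 passed the filter through day 2 alone, which favoured this rise. Without control replicate 1 or 2 the adjusted p was 0.058 and 0.057.

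Sult5a1 had levels of 12.8 and 19.6 FPKM without surgery, 2.68, 2.09, 2.46 and 1.15 at day 2, and 29.3 and 17.3 at day 14. Day 2 was below every other library, a change of −2.47 ± 0.32 from control (limma adjusted p = 0.0034). Sult1c2 fell from 1.24 and 1.18 FPKM in the controls to listed values of 0 in day 2 replicates 1 and 2 and 0.310 and 0.218 in replicates 3 and 4 (change −0.98, limma adjusted p = 0.022). It passed the filter of 1 FPKM through the controls alone, which favoured this fall, and it failed the filter at 5 FPKM.

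Sult1d1, an enzyme for catecholamines, measured 53.5 and 61.3 FPKM in the controls, 50.2, 47.5, 41.8 and 36.3 at day 2, and 109 and 93.0 at day 14. Its day 2 change of −0.39 ± 0.22 did not pass, but it rose between day 2 and day 14. The remaining member, Sult1b1, had changes of −0.42 and −0.66 at day 2 and day 14, neither of which passed. No 50-base word of Sult2a8, Sult1a1, Sult1e1, Sult5a1, Sult1d1 or Sult1b1 occurred in another of the 67 family genes, the only ones compared.

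Levels of several sulfotransferases are known to differ between male and female mouse liver. No label gives sex, but the Y-linked genes Ddx3y and Eif2s3y were at 9.09 to 18.8 and 19.2 to 51.7 FPKM over the 8 libraries. Xist was at no more than 0.0163 FPKM in any of them, so the RNA read as male throughout. Of 14 female-biased liver genes 6 were tested, of which 3 rose (Cyp4a14, Acot3 and Cyp17a1) and 0 fell. Acot3, at 0.0978 and 0.0455 FPKM in the controls, would not have passed the filter without its day 2 levels, which favoured its rise. Cyp4a14 was at 0.378 and 0.535 FPKM in the controls and passed the filter only through the hepatectomy groups. Others of that list stayed low, such as Cyp2b13 at 0 in 7 of the libraries and 0.0943 FPKM in day 2 replicate 4. Sult2a1 and Sult3a1, sulfotransferases of female liver, were at no more than 0.0804 and 0.0800 FPKM in any library.

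Among the glutathione transferases, Gsta1 rose most. This alpha-class enzyme (chr9:78230656-78242684) stood at 1.62 and 4.21 FPKM in control liver, 113, 60.3, 161 and 51.8 at day 2, and 15.2 and 12.0 at day 14. The groups did not overlap, the day 2 mean was 33.0 times the control mean, and the change was 4.57 ± 0.49 (limma adjusted p = 0.0022). The call was kept in all 18 alternatives.

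Gsta2, which lies on the same chromosome, had levels of 17.8 and 19.9 FPKM without surgery, 18.8, 26.0, 56.7 and 21.7 at day 2, and 36.2 and 55.2 at day 14. Its day 2 range overlapped the controls, with a change of 0.54 ± 0.42 (limma adjusted p = 0.37). The pair is shown because their levels differ in pattern although their sequences are close. Over 669 aligned bases of their longest open reading frames (GENCODE M21 transcripts) 97.9% were identical. The 60 bases from position 449 to 508 of each frame hold 5 of the 14 differences, in capitals:
Gsta1: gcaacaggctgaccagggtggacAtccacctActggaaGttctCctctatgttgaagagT
Gsta2: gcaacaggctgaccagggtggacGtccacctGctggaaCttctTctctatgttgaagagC
Of the 50-base words of Gsta1 44.6% occur in Gsta2. Reads from such words can be divided between them in either way, so the split between the pair is uncertain.

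The theta class held the other called members. Gstt2, which acts on small organic halides and sulfate esters, measured 16.4 and 12.3 FPKM in the controls, 79.8, 113, 41.7 and 54.4 at day 2, and 31.5 and 57.7 at day 14, a day 2 change of 2.17 ± 0.42 (limma adjusted p = 0.012). Gstt3 stood at 20.2 and 13.9 FPKM in control liver, 51.2, 59.998, 48.6 and 41.6 at day 2, and 11.7 and 23.9 at day 14, a day 2 change of 1.52 ± 0.31 (limma adjusted p = 0.015). In both genes every day 2 library was above both controls. Their neighbour Gstt1 on chromosome 10 had levels of 176 and 164 FPKM without surgery, 80.5, 83.0, 261 and 168 at day 2, and 269 and 252 at day 14, and its day 2 change of −0.37 ± 0.47 did not pass (limma adjusted p = 0.58).

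The most abundant Gst genes were far apart between the day 2 libraries. Gstp1, the pi-class enzyme and the highest member in both controls, was at 3369 and 4106 FPKM there, 1679.96, 1426, 5290.3 and 1989 at day 2, and 3533 and 4260.5 at day 14. Replicate 3 was above both controls and the other day 2 libraries were below them, so the change of −0.73 ± 0.51 did not pass (limma adjusted p = 0.32). Without replicate 3 it was −1.14 (adjusted p = 0.034), and with the length and GC trend removed −1.51 (adjusted p = 0.090). Gstp1 shares 62.3% of its 50-base words with Gstp2, which was at no more than 10.3 FPKM, and 98.1% of the bases of their open reading frames were identical.

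Gsta3, an alpha-class enzyme known for detoxifying aflatoxin in mouse liver, measured 1401 and 1447 FPKM in the controls, 80.6, 94.0, 1153 and 267 at day 2, and 391 and 1014 at day 14. All day 2 libraries were below both controls, but they spanned a factor of 14.3. The change of −2.69 ± 0.99 did not pass (limma adjusted p = 0.086), and without replicate 3 it was −3.48 (adjusted p = 0.0094).

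Gstm1, a mu-class enzyme, stood at 806 and 763 FPKM in control liver, 704, 1546, 2317 and 894 at day 2, and 4136 and 2545 at day 14. Both day 14 libraries were above all others. The day 14 change of 2.05 ± 0.56 missed the threshold (limma adjusted p = 0.056). Gstm3 had levels of 46.3 and 37.1 FPKM without surgery, 30.6, 103, 779 and 115 at day 2, and 60.7 and 84.5 at day 14, with replicate 3 at 25.4 times replicate 1.

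**Figure D5:**
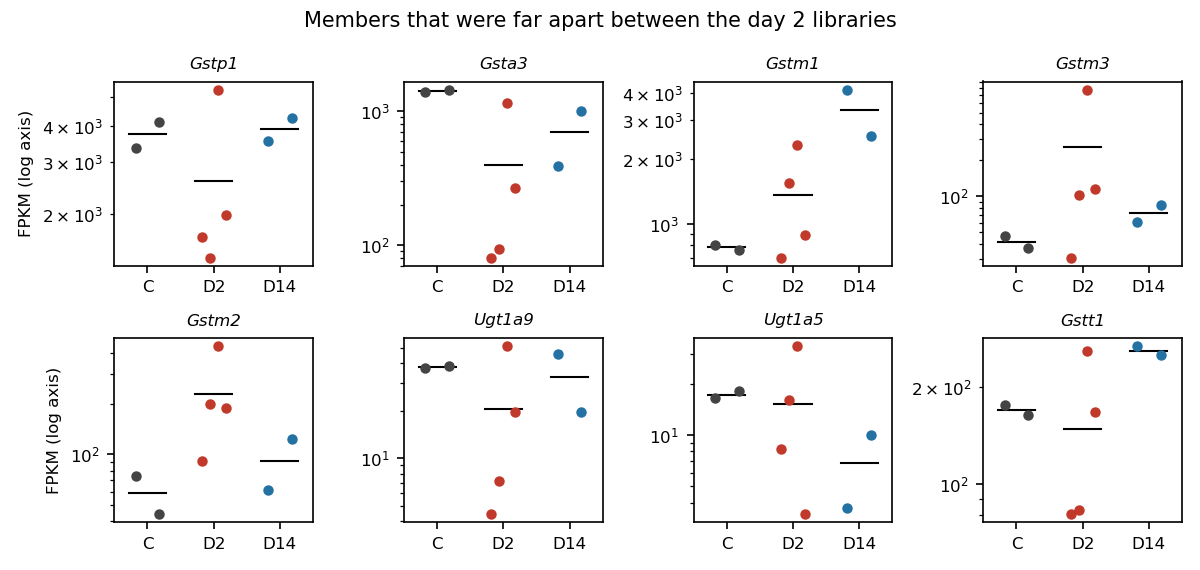
FPKM on log axes of 8 members with a wide spread at day 2, with points for libraries, horizontal lines for group means, and day 2 points in the order of replicates 1 to 4 from left to right. The 8 were picked by hand and not by a rule on spread. Replicate 3 is the highest day 2 point in all 8, and was highest for 28 of the 44 members. For Gsta3 it is at 14.3 times the lowest. Sult1e1 and Gstp2, not drawn, spread more than Gstp1, Gstm1 and Gstt1 and were highest in replicates 2 and 4.

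The remaining classes are each represented by 1 gene. Gstz1, which isomerises maleylacetoacetate in tyrosine breakdown, measured 388 and 386 FPKM in the controls, 246, 415, 307 and 236 at day 2, and 257 and 372 at day 14 (day 2 change −0.40 ± 0.30). Gstk1, the mitochondrial and peroxisomal kappa-class enzyme, stood at 122 and 109 FPKM in control liver, 68.5, 73.7, 95.5 and 97.4 at day 2, and 80.1 and 184 at day 14 (day 2 change −0.47 ± 0.34). Gsto1, an omega-class enzyme that reduces dehydroascorbate, had levels of 71.5 and 69.1 FPKM without surgery, 54.4, 75.6, 44.3 and 46.2 at day 2, and 88.5 and 112 at day 14 (day 2 change −0.38 ± 0.27). None of the 3 passed.

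Of the members not given by library, Gsta4, which acts on 4-hydroxynonenal, Gstm2 and Gstm5 were above both controls in all day 2 libraries, with changes of 1.06, 1.77 and 0.65 and adjusted p of 0.062, 0.063 and 0.069 by limma. Gstm4, Gstm6, Gstm7 and Gstp2 had changes of 0.33, −1.21, −1.18 and −0.20. Day 2 replicate 3 was the highest of its group for 12 of 19 Gst members. Cell cycle genes were high in day 2 replicates 3 and 4 and pericentral genes highest in replicate 3, and their part in the Gst levels was not tested.

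Many genes of the pi, mu and alpha classes are known NRF2 targets. Of 12 other genes of the NRF2 system that were tested, 4 rose at day 2 and 0 fell, with a median of 0.26. They were Nqo1 (2.16), Srxn1 (1.89), Hmox1 (1.72) and Cbr3 (1.26). Cbr3, at 0.258 and 0.607 FPKM in the controls, passed the filter through day 2 alone, which favoured its rise.

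Promoter windows of the members were searched for motifs of factors that act on such genes. RefSeq windows (GRCm38.p6) from 250 bases before to 50 bases after a start site were found for 40 of 44 members. The letters TGACNNNGC, the core of the antioxidant response element to which NRF2 binds, were found on either strand in the windows of 3 of 40 members (7.50%), all of them Gst genes. Over all 27025 genes with windows the share was 14.0%, and it was 12.4% of the 32851 windows. These stretches are shown, 5′ to 3′ on the gene's strand with the motif in capitals, so that the matches can be read.
Gsta3: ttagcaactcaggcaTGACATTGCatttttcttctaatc
Gstm5: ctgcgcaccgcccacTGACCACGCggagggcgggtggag
Gstm7: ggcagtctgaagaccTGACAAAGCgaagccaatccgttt
They lie at chr1:21240449-21240487 and chr3:107895797-107895835 on the plus strand and chr3:107931720-107931758 on the minus strand. None of these 3 members rose. The other motifs reported, also searched on either strand, were TTCNNNGAA (STAT) in 3 of 40 members and 9.55% of all genes with windows. CAAAGTCCA (HNF4), TTGCGNAA (C/EBP) and TTGCGTG (dioxin receptor) were in 1 member each and in 0.555%, 0.918% and 1.35% of those genes. A match of this kind describes letters and not binding.

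By day 14 few differences from control were called. Of the 44 members 0 rose and 1, Ugt3a1, fell, and 7 had an unadjusted p under 0.05. Over all genes tested 5.21% rose and 4.58% fell, and 3673 of the 12340 had an unadjusted p under 0.05. The median change was −0.55 for Ugt, 0.42 for Sult and 0.46 for Gst members, against −0.00 for all genes tested. Gsta1 (1.97 ± 0.56, adjusted p = 0.062), Gstt2 (1.52 ± 0.49, adjusted p = 0.082) and Sult1d1 (0.80 ± 0.26, adjusted p = 0.081) were higher than both controls in both day 14 libraries without passing the limma test. With 2 libraries in each group, a p that misses the threshold does not show that levels had returned.

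Between day 2 and day 14, 8 members rose and 4 fell. Over all genes tested 9.09% rose and 7.03% fell. These comparisons share libraries with the earlier ones, so the values are given side by side and not as separate evidence. Of the Ugt members Ugt2b38 (3.73 ± 0.47), Ugt2b1 (3.58 ± 0.90), Ugt3a2 (2.05 ± 0.39), Ugt2a3 (1.74 ± 0.42) and Ugt2b5 (1.65 ± 0.32) rose. Of the Sult members Sult2a8 (5.48 ± 0.42), Sult5a1 (2.96 ± 0.32) and Sult1d1 (1.19 ± 0.22) rose, while Sult1e1 (−4.42 ± 0.63) and Sult1a1 (−1.24 ± 0.28) fell. Of the Gst members Gsta1 (−2.60 ± 0.49) and Gstt3 (−1.52 ± 0.31) fell and 0 rose. The calls of Ugt2b1 and Ugt2a3 were kept in 10 and 11 of 18 alternatives, and that of Sult1d1 was lost with the length and GC trend removed. Without day 14 replicate 1 only 1 of the 12 calls was kept, that of Sult2a8, and over all genes 36 rose and 12 fell in place of 1122 and 868.

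Genes that supply, complete or follow these reactions were counted from fixed lists. Of 8 genes for UDP-glucuronic acid supply 1 rose at day 2 (Pgm1, 1.52) and 1 fell (Ugp2, which makes UDP-glucose, −0.90). Pgm1 had a control mean of only 2.27 FPKM. The far more abundant Pgm2, with a control mean of 94.6 FPKM, changed by −0.30 and did not pass (limma adjusted p = 0.56). Of 10 genes on the list for sulfate and PAPS supply 0 rose and 3 fell. They were Csad (−3.32), the sulfite oxidase gene Suox (−1.70) and the phosphatase gene Bpnt1 (−0.97). Csad makes hypotaurine from cysteine sulfinate and the Bpnt1 enzyme removes the spent sulfate donor, so neither makes PAPS. The PAPS synthase genes Papss2 (−1.56) and Papss1 (−0.06) did not pass (limma adjusted p of 0.083 and 0.92). Of 12 genes for glutathione synthesis and recycling 1 rose (glutathione synthetase Gss, 1.59) and 1 fell (Cbs, −1.13). At day 14 Gclm, the modifier subunit of glutamate-cysteine ligase, was higher than control (0.88, limma adjusted p = 0.049) and Cbs was lower (−1.84, limma adjusted p = 0.026).

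Of 6 tested genes for membrane glutathione transferases and their relatives 1 rose (Mgst3, 1.80) and 1 fell (Ptgds, −1.15). Mgst1, the most abundant of them, was at 5249.6 and 4508 FPKM in the controls and 2805.9 to 4506 at day 2, and did not pass. Of 16 genes for other conjugations 1 rose, the nicotinamide methyltransferase Nnmt (1.48), and 7 fell, led by Inmt (−4.67), Gm4952 (−2.94) and Acsm5 (−2.26). Of 7 deconjugating enzymes 1 fell, Ces2a (−2.15), and 0 rose.

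Of 10 tested transporters that carry conjugates or their parent compounds, 6 fell, among them the uptake carriers Slco1a1 (−5.13) and Slco1b2 (−4.06), and 1 rose, the efflux pump Abcb1a (1.82). Abcb1a was at 0.361 and 0.295 FPKM in the controls and 1.39 to 8.52 at day 2. It passed the filter through day 2 alone, which favoured this rise. Of 13 xenobiotic receptors and partner factors 2 rose, Por (1.89) and the PXR gene Nr1i2 (0.79), and 2 fell, Onecut1 (−2.30) and Cebpa (−1.68). Nr1i3, the gene of CAR, measured 54.2 and 64.1 FPKM in the controls, 58.2 to 129 at day 2, and 285 and 216 at day 14, and was higher at day 14 than in the controls (2.06, limma adjusted p = 0.031) and than at day 2 (1.57, limma adjusted p = 0.023).

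Markers of other cells also moved at day 2. Of 12 neutrophil genes 6 were tested, and 4 rose and 0 fell. Their sum was 20.7 and 41.0 FPKM in the controls, 6078, 6221, 3555 and 1887 at day 2, and 74.9 and 375 at day 14. Most of it was Lcn2, which hepatocytes also express, at 1854 to 5936 FPKM at day 2. The other 3 that rose were S100a8, from 0.769 and 1.85 FPKM in the controls to between 11.7 and 102 at day 2 (limma adjusted p = 0.017), S100a9, from 2.64 and 4.24 to between 15.1 and 160.1 (adjusted p = 0.027), and Retnlg, from 0.169 and 0.341 to between 4.04 and 50.7 (adjusted p = 0.013). Ly6g was at no more than 0.736 FPKM in any library. Of 9 monocyte and macrophage genes 3 rose and 1 fell, and of 10 Kupffer cell genes 1 rose and 1 fell. Of 10 liver endothelial genes 0 rose and 2 fell, and of 6 erythroid genes 0 rose and 1 fell. None of the tested genes passed at day 2 among 6 of cholangiocytes, 10 of stellate cells and fibroblasts, 2 of gut, kidney and pancreas, and 10 of the cell cycle, and no gene of T, B and NK cells reached the filter. Of the 12 hepatocyte genes 1 rose and 1 fell, and of 4 tested Y-linked genes 0 rose and 2 fell. The part of these cells in the levels of the conjugating enzymes was not tested.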

How the data were processed

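The authors deposited 1 table of FPKM per gene for 8 libraries. Named in the submitters' processing notes, without role or order, are the builds GRCm38 and mm9 and the tools HISAT2 2.10, Cufflinks 2.2.1, DESeq2 and HTSeq. Which of them made the FPKM, and any scaling between libraries, is not given in the sources used here. Genes reaching 1 FPKM in 2 or more libraries were fitted as log2(FPKM + 1) with limma 3.58.1 (R 4.3.3, mean-variance trend) in 1 model of 3 group means with 5 residual degrees of freedom. P-values were adjusted by Benjamini-Hochberg over 12340 genes and measure only the spread between these libraries. The method was also run on simulated data with independent noise in each library, and the outcome is not given here. Those data lacked the pairs seen among the day 2 libraries, so the run does not cover that feature. The 44 members and the 25 gene lists were chosen with earlier results of these data known. Values by library are given for the called members, at most 8 per family and comparison, and for the most abundant member of each subfamily. Gsta2 and Gstm3 were added after their values were seen. From each list at most 3 called genes per comparison were named, with exceptions (Mgst1, Ly6g, Cyp2b13, Cbr3, Nr1i2, Nnmt, S100a9, Pgm2, Papss1, Papss2, Ddx3y, Eif2s3y, Xist) also added after their values were seen. Positions and transcripts come from GENCODE M21, matched by gene identifier, and promoters from RefSeq. A listed gene and a motif are not reported here. There were 18 alternatives. Figures used matplotlib 3.10.9.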

Additional observations from a re-analysis of the deposited data

How the results depend on the processing

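Every Ugt member tested had a negative day 2 change in each of the 18 alternatives, with family medians from −2.59 to −1.18, and the Gst median changed sign only with the length and GC trend removed. Of the 17 members called at day 2 against control, 4 were kept without control replicate 1 and 2, Sult2a8 and Gsta1, without control replicate 2. Over all genes these fits made 45 higher and 92 lower calls, and 40 and 72, in place of 1200 and 1420, so the loss was general. With single libraries left out, the number of members called at day 2 against control ranged from 1 to 6 higher and from 1 to 19 lower, at day 14 against control from 0 to 3 higher and from 0 to 2 lower, and at day 14 against day 2 from 1 to 15 higher and from 0 to 4 lower. The lowest counts of lower calls came with 1 library left in a compared group, where calls over all genes also fell. Both 19 lower and 15 higher came without day 2 replicate 3. There all genes gave 1523 lower and 963 higher in these comparisons, in place of 1420 and 1122. At day 14 against control, 2 were lower without day 2 replicate 2 (935 of all genes). There (1114) and without replicate 3 (615), 3 were higher. With day 2 replicate 1 left out, 6 were higher at day 2 (775). Without day 2 replicates 1 and 2 together 8 members were called higher at day 2, against 1829 of all 12340 genes. Without replicates 3 and 4 together 22 were called lower at day 2 and 19 higher at day 14 against day 2, where all genes gave 1965 and 1434. At day 14 against control, 1 member was called higher with the filter at 5 FPKM and 4 with only the groups compared in the fit. With quantile scaling 2 were called lower, and with only the groups compared 3. Calls over all genes moved too, from 643 higher and 565 lower in the main fit to 1423 and 1241 with only the groups compared. They were 613 higher of 8263 genes with the filter at 5 FPKM, and 693 lower with quantile scaling. Without day 2 replicates 1 and 2 together the member counts were 4 higher and 2 lower, and without replicates 3 and 4 together 4 higher and 3 lower. These fits share the spread with the day 2 libraries kept, and over all genes gave 1677 higher and 1439 lower, and 1185 and 1025. Depth could not be given in counts.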
